A study of Mus musculus with 17 samples.

Results

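The genes described here were 10 early-response feedback regulators, taken by symbol from the 24498 gene symbols of a read count table of mouse dorsal hippocampus. They were 4 MAP kinase phosphatases (Dusp1, Dusp4, Dusp5 and Dusp6), the immediate early response genes Ier2 and Ier5, the growth-arrest genes Btg2, Gadd45b and Gadd45g, and Sik1, which encodes salt-inducible kinase 1. All 10 symbols were in the table and all 10 passed the filter on low counts in every fit. The lowest count of any of them in any library was 80 reads, for Dusp5.

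Early-response genes are transcribed soon after a neuron fires or a cell meets a growth factor or stress signal, largely through transcription factors such as CREB and SRF that already sit at their promoters. Several of their products then damp the signal that induced them. The DUSP phosphatases remove the activating phosphates from ERK, p38 and JNK kinases, and SIK1 phosphorylates the CRTC coactivators and so keeps them away from CREB. In the hippocampus these genes are known as part of the response to synaptic activity.

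RNA was sequenced from 17 libraries in 6 groups, and libraries are named here by the number in their label. The mice were wild type (WT) or constitutive ACSS2 knockouts (KO), which lack ACSS2, the enzyme that turns acetate into acetyl-CoA, in every cell and from conception. KO and WT lines were each bred within genotype, from founders born to heterozygous pairs. At 6 months of age they were injected in the right dorsal hippocampus with 1 µg of tau purified from frontal cortex of human Alzheimer's disease (AD) brain, or with PBS, and tissue was taken 6 months later. The sample labels give perfusion with PBS and then paraformaldehyde before dissection for RNA. Slices 1 mm thick held CA1, CA2, CA3 and the dentate gyrus, so all cell types of the slice were read together. The PBS groups were male WT PBS (791, 792, 793) and male KO PBS (751, 752, 753). The tau groups were male WT Tau (771, 772, 773), male KO Tau (711, 712, 713), female WT Tau (331, 341) and female KO Tau (314, 324, 325). No female library was labelled PBS, so sex could be compared under tau alone, and all female libraries carried other number series than the males, so sex and series cannot be told apart.

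Total counts ran from 14183131 to 22463635 per library. Acss2 itself lay between 44.0 and 54.6 CPM, counts scaled to a fixed library total, in the 8 WT libraries and between 3.07 and 8.81 CPM in the 9 KO libraries. Some libraries stood apart in markers of hippocampal regions. The summed CPM of 6 dentate granule cell markers was 27.8 in library 752, 61.3 in 712 and 116 in 713, and lay between 155 and 443 in the other male libraries. The same 3 libraries had the highest sums of 4 neocortical markers among the males, 369, 328 and 286 CPM, against at most 222 CPM in the rest. Library 711 had the lowest neuronal sum of the males (3546 CPM over 3 markers) and the highest astrocyte sum (2454 CPM over 5 markers). Library 713 had a choroid plexus sum of 3975 CPM against at most 568 CPM in any other male library. Over the 12 males the striatal sum ran from 24.8 to 265 CPM, the thalamic sum from 21.6 to 99.7 CPM and the CA3 sum from 75.5 to 137 CPM, and 4 haemoglobin genes were listed at 0 in every library. The 5 female libraries held more astrocyte marker RNA (2403 to 4095 CPM) than all males but 711. In bulk tissue, fewer cells of a type and less RNA per cell cannot be told apart.

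**Figure D1:**
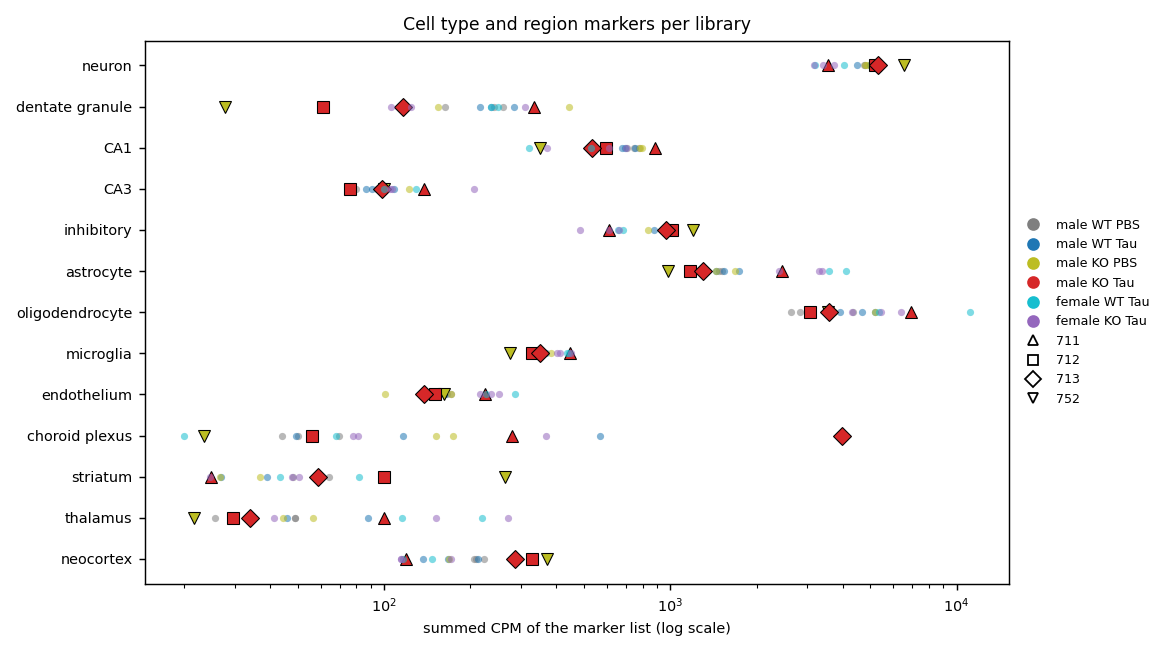
Summed CPM of each marker list (x axis, log scale) in the 17 libraries, coloured by group, with libraries 711, 712, 713 and 752 drawn as outlined symbols. Libraries 752, 712 and 713 have the lowest dentate granule sums of the males (27.8, 61.3 and 116 CPM), and 711 has the highest astrocyte sum of the males (2454 CPM).

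Promoter sequence was at hand for 7 of the 10 genes, namely Dusp1, Dusp5, Dusp6, Ier5, Btg2, Gadd45b and Gadd45g (RefSeq, assembly GRCm38.p6, 250 bases before to 50 after the start site). The cAMP response element (CRE), the site read by CREB, was searched as the full palindrome TGACGTCA and as its shorter core TGACG on either strand, which the full site contains. The full site stood in 1.79% of all 32851 promoters and the core in 20.8%. Among the 7 promoters 2 held the full site (Dusp1 and Btg2) and 3 held the core (the same pair and Dusp5). The CArG box, the site read by SRF, stood in 1.63% of all promoters and in 1 of the 7, that of Dusp5, which held 2 of them side by side. The AP-1 site TGANTCA was in none of the 7 and in 7.81% of all promoters, and the EGR site GCGNGGGCG was in those of Btg2 and Gadd45b and in 5.55% of all promoters. The promoters of Dusp1 and Btg2 are printed because these genes split the male KO Tau group, as described further on. That of Dusp5 is printed because Dusp5 was low in every library of that group. No sequence was at hand for Ier2, which split the group too, or for Sik1, which was low throughout it. Any part of these sites in the levels was not tested. Capitals mark full CRE sites and cores and, in Dusp5, the CArG pair. The Dusp1 promoter lies at chr17:26508423-26508722 on the minus strand, that of Btg2 at chr1:134079106-134079405 on the minus strand, and that of Dusp5 at chr19:53528895-53529194 on the plus strand.
Dusp1: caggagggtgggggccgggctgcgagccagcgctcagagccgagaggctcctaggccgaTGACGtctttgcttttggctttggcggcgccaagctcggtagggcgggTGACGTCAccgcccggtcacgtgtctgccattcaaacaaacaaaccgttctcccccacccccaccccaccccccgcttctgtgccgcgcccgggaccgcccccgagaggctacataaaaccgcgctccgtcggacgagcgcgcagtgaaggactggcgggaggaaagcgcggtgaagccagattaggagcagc
Btg2: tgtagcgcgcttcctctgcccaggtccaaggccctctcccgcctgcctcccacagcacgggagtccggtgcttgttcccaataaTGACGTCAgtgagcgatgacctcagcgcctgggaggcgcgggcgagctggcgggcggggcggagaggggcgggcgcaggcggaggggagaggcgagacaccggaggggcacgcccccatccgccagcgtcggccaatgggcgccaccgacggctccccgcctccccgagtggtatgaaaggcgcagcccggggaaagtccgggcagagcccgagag
Dusp5: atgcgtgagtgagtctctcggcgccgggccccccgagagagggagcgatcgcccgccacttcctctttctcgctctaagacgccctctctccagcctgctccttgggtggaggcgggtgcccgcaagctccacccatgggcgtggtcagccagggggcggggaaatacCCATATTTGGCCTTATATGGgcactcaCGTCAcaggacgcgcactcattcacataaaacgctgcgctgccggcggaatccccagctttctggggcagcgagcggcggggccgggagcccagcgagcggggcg
The full CRE began 143 bases before the start site in Dusp1 and 166 bases before it in Btg2, and the CArG pair of Dusp5 began 82 bases before its start site. These matches are descriptions of letters, not of bound sites.

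The 10 genes differed in structure and position. In GENCODE annotation of the same assembly Ier2 and Ier5 had 1 exon each, Btg2 had 2, and the longest transcript of Sik1 had 14. Dusp5 spans chr19:53529109-53542431, Sik1 chr17:31844250-31855804, Ier5 chr1:155096361-155099636, Ier2 chr8:84661331-84662852 and Gadd45b chr10:80930073-80932204. The annotated locus of Dusp1, chr17:26505590-26562128, overlaps Ergic1 on the opposite strand and a few noncoding genes, and Dusp5 overlaps an antisense gene. Counting used a reverse-strand setting, while the named library kit was not stated to mark strand. If it does not, reads of each locus and of its antisense partner cannot be told apart, and the counts of Dusp1 and Dusp5 carry that uncertainty. Per kilobase of exon and averaged over the 17 libraries, Ier5 (25.1 CPM per kb) and Dusp6 (22.1 CPM per kb) had the highest levels, Gadd45g followed with 14.6, the other phosphatases and Ier2, Btg2 and Gadd45b lay between 5.04 and 9.62, and Sik1 was lowest with 2.74 CPM per kb.

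**Figure D2:**
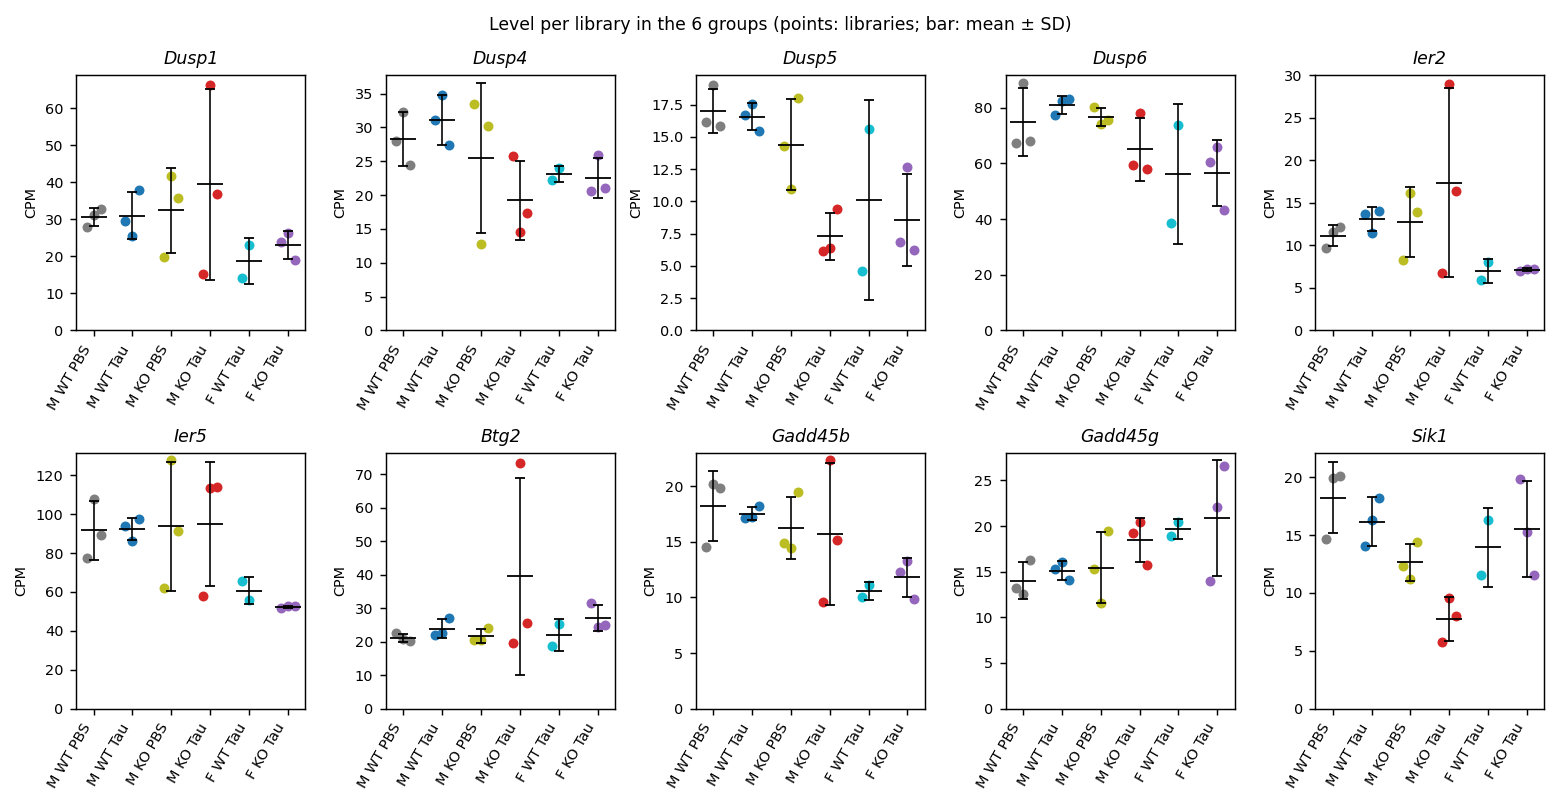
CPM (y axis) of the 10 genes in the 17 libraries (points) of the 6 groups (x axis; M male, F female), with the mean ± SD of each group. Dusp5 and Sik1 have their lowest male values in the 3 KO Tau libraries (6.12 to 9.41 CPM and 5.74 to 9.54 CPM), while Dusp1, Ier2 and Btg2 span a wide range within that group.

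In male mice Dusp5 and Sik1 were at their lowest where knockout and tau injection came together. Dusp5, the nuclear phosphatase selective for ERK, was at 6.12, 6.41 and 9.41 CPM in the male KO Tau libraries 711, 712 and 713. It was at 16.2, 19.0 and 15.9 CPM in male WT PBS (791, 792, 793), at 16.7, 17.5 and 15.5 CPM in male WT Tau (771, 772, 773), and at 14.3, 10.9 and 17.99 CPM in male KO PBS (751, 752, 753). All 3 KO Tau libraries thus lay below all 9 other male libraries. Sik1, the kinase that restrains CRTC coactivators, stood at 5.74, 9.54 and 7.998 CPM in libraries 711, 712 and 713. Its values were 14.7, 19.9 and 20.1 CPM in male WT PBS, 14.0, 16.3 and 18.2 CPM in male WT Tau, and 12.3, 11.2 and 14.4 CPM in male KO PBS. Here too the KO Tau libraries lay below all other males. The KO PBS libraries lay below every WT PBS library but overlapped WT Tau, as library 771 (14.0 CPM) was below 753 (14.4 CPM). Of the 13951 genes with a mean of at least 1 CPM in males, 115 (0.824%) had all 3 KO Tau libraries below all other males, and these included 2 of the 10 genes.

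Against male WT PBS, the log2 fold change in male KO Tau was -1.22 ± 0.20 (SE) for Sik1 and -1.21 ± 0.20 for Dusp5, a level of 0.43 times that of the WT PBS mice in both cases. Against male WT Tau it was -1.03 ± 0.19 for Sik1 and -1.15 ± 0.20 for Dusp5, and against male KO PBS it was -0.75 ± 0.20 for Sik1 and -1.02 ± 0.20 for Dusp5. These comparisons share the KO Tau libraries, so they are not independent. With edgeR's quasi-likelihood test, adjusted over all 15098 genes tested, Dusp5 and Sik1 had adjusted p = 0.162 against WT PBS, and none of the 10 genes passed the false discovery rate of 0.05 against any of the 3 groups. The share of all genes that passed was 0.00662% against WT PBS, 0.00662% against WT Tau and 0% against KO PBS. At an unadjusted p under 0.05 there were 4 of the 10 against WT PBS (Dusp5, Sik1, Btg2 and Gadd45g), beside 6.33% of all genes, 2 of 10 against WT Tau (Dusp5 and Sik1), beside 4.71%, and 3 of 10 against KO PBS (Dusp5, Sik1 and Btg2), beside 7.95%. Btg2 stood in the first and last of these counts through library 712, without which its log2 fold change was 0.12 against WT PBS and 0.026 against KO PBS.

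The DESeq2 Wald test on the same 12 male libraries called both genes against WT PBS, with adjusted p = 5.80e-05 for Dusp5 and 3.15e-05 for Sik1, where it called 0.0750% of all genes. It called both against WT Tau (0.0200% of all genes), Dusp5 alone against KO PBS (0.302%), and both in the mean of KO against WT over the treatments (0.0652%). In a DESeq2 fit on the groups compared alone, which also called both genes against WT PBS (0.179% of all genes) and against WT Tau (0.188%) and neither against KO PBS, single libraries decided some calls. With 1 library left out, the share of all genes called ran from 0.0104% to 7.13% against WT PBS and from 0.0104% to 9.30% against WT Tau. Against WT PBS, Dusp5 kept its call in 4 of 6 fits with 1 library left out and lost it without 792 (DESeq2 adjusted p = 0.188) or 793 (0.0718), while Sik1 kept it in 3 of 6 and lost it without 792 (0.334), 793 (0.333) or 713 (0.108). Against WT Tau, Dusp5 kept its call in 3 of 6 and Sik1 in 2 of 6. Both lost it without 771, 772 or 773 (adjusted p from 0.0707 to 0.695), and Sik1 lost it also without 713 (0.336). With libraries 711 and 752 both left out, a choice made after the data had been seen, edgeR called Dusp4, Dusp5 and Sik1 as lower against WT PBS, where it then called 1.27% of all genes. The KO Tau arm then held libraries 712 and 713, both low in dentate granule markers. Library 711 had the lowest value of Dusp5 and of Sik1 among the males. Its dentate granule sum was 334 CPM, and its CA1 sum of 883 CPM was the highest of the males. It also had the lowest neuronal sum of the males (3546 CPM) and the highest astrocyte sum (2454 CPM). The part of tissue makeup in the low values of Dusp5 and Sik1 was not tested.

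**Figure D3:**
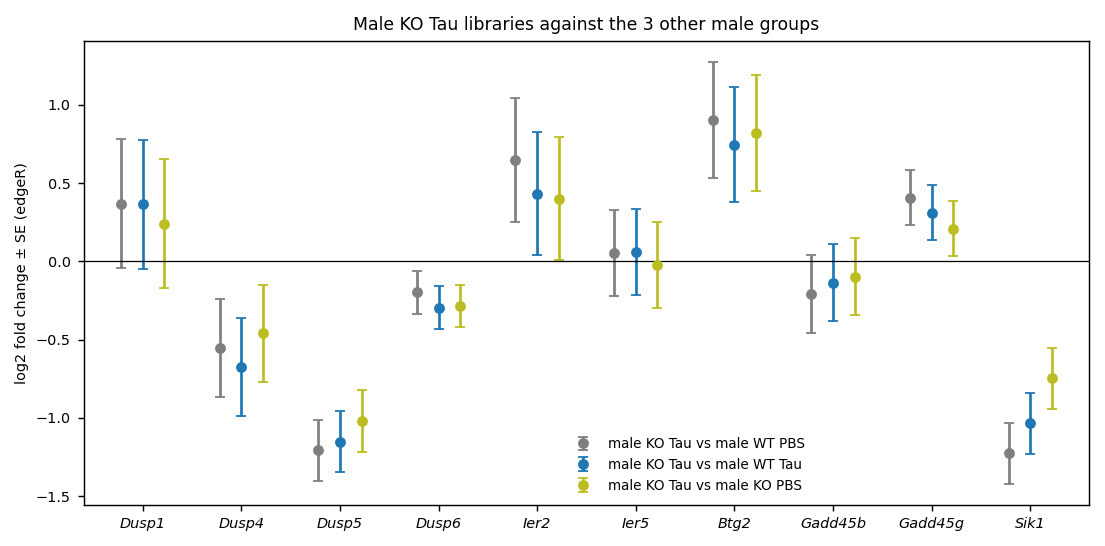
Log2 fold change ± SE from edgeR (y axis) of the 10 genes (x axis) for male KO Tau against male WT PBS, male WT Tau and male KO PBS. Dusp5 and Sik1 lie between -1.22 and -0.75 in all 3 comparisons, and Ier5 lies near 0.

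Among the other phosphatases, Dusp4 and Dusp6 had lower KO Tau means that did not pass the test in edgeR. Dusp4, a nuclear phosphatase of ERK and JNK, stood at 25.8, 14.5 and 17.4 CPM in 711, 712 and 713, the male KO Tau libraries, at 31.1, 34.8 and 27.4 CPM in male WT Tau, and at 28.0, 32.3 and 24.5 CPM in male WT PBS. KO Tau lay below WT Tau without overlap, and overlapped WT PBS through library 711. The lowest value of all 17 was that of KO PBS library 752, 12.8 CPM, beside 33.5 and 30.2 CPM in 751 and 753. Libraries 752, 712 and 713, the 3 lowest, were also the 3 male libraries with the lowest dentate granule sums. In the 5 females Dusp4 ran from 20.6 to 25.9 CPM. The highest of these was library 324, which had the lowest dentate granule sum of the females (106 CPM). The part of tissue makeup in the Dusp4 values was not tested. The log2 fold change of Dusp4 against WT Tau was -0.67 ± 0.31 in edgeR, with adjusted p = 0.927. Without 711 and 752 it was -0.95 ± 0.15 with an edgeR adjusted p of 0.0136, where 4.61% of all genes were called. Dusp6, the cytoplasmic ERK phosphatase, ranged from 57.9 to 78.0 CPM in KO Tau and from 67.3 to 89.0 CPM in the other males, a log2 fold change of -0.30 ± 0.14 against WT Tau (edgeR adjusted p = 0.927).

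Genes whose 3 KO Tau libraries lay wholly below a control group were counted and read against all genes. Against WT PBS these were 2 of the 10 (Dusp5 and Sik1), beside 8.11% of all genes tested. Against WT Tau they were 3 of the 10 (Dusp4, Dusp5 and Sik1), beside 8.76%, and against KO PBS 2 of the 10 (Dusp5 and Sik1), beside 2.85%. None of the 10 lay wholly above a control group, and the share of all genes that did is not given here. All 3 KO Tau libraries lay above all other males in 0 of the 10, beside 0.882% of the 13951 genes.

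Dusp1, Ier2 and Btg2 split the male KO Tau group. Dusp1, the stress- and activity-induced phosphatase of p38, JNK and ERK, was at 15.1 CPM in library 711, at 36.7 CPM in 713 and at 66.3 CPM in 712. The 9 other male libraries ran from 19.7 to 41.8 CPM, so 711 lay below all of them and 712 above all of them. Ier2, an early nuclear protein, was at 6.75, 16.4 and 28.9 CPM in 711, 713 and 712, against 8.22 to 16.2 CPM in the other males. Btg2, an antiproliferative cofactor of mRNA deadenylation, was at 19.7, 25.5 and 73.3 CPM in the same order, against 20.2 to 27.2 CPM. In each case the group mean was carried by 712. The log2 fold change against WT PBS was 0.37 ± 0.41 for Dusp1, 0.65 ± 0.40 for Ier2 and 0.90 ± 0.37 for Btg2 (edgeR adjusted p = 0.902, 0.825 and 0.783). Without library 712 these were -0.22 for Dusp1, 0.084 for Ier2 and 0.12 for Btg2, and without 711 they were 0.75, 1.02 and 1.22.

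Gadd45b and Ier5 followed the same order at the low end. Gadd45b, a stress sensor linked to DNA demethylation in neurons, was at 9.59 CPM in 711, 15.1 CPM in 713 and 22.4 CPM in 712, against 14.4 to 20.2 CPM in the other males. Ier5, a regulator of heat shock factor signalling, was at 57.8 CPM in 711 and at 114 and 113 CPM in 713 and 712, against 61.8 to 128 CPM. Its log2 fold change against WT PBS was 0.05 ± 0.27. Gadd45g, the family member without this split, was at 19.2, 20.4 and 15.8 CPM in 711, 712 and 713, against 11.6 to 19.5 CPM in the other males, a log2 fold change of 0.41 ± 0.18 against WT PBS (edgeR adjusted p = 0.783).

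Library 711 thus lay below all 9 other males in 8 of the 10 genes, beside 25.5% of the 13951 genes. Library 712 lay above all of them in 5 of 10, beside 16.5%, and below in 2 of 10, beside 12.9%. Library 713 lay below in 3 of 10, beside 7.35%, and above in 1 of 10, beside 10.2%. The KO Tau group had the largest coefficient of variation of the 4 male groups for 7 of the 10 genes and for 45.8% of all genes, and KO PBS for the other 3 and for 39.6%. Early-response transcription factors had the same order of libraries. Fos was at 9.27 CPM in 711, 32.6 CPM in 713 and 82.1 CPM in 712, and the sum of 13 such genes was 854, 1185 and 1599 CPM. The neuronal marker sum was 3546, 5305 and 5181 CPM in 711, 713 and 712, and the part of these differences in tissue makeup in the values above was not tested.

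**Figure D4:**
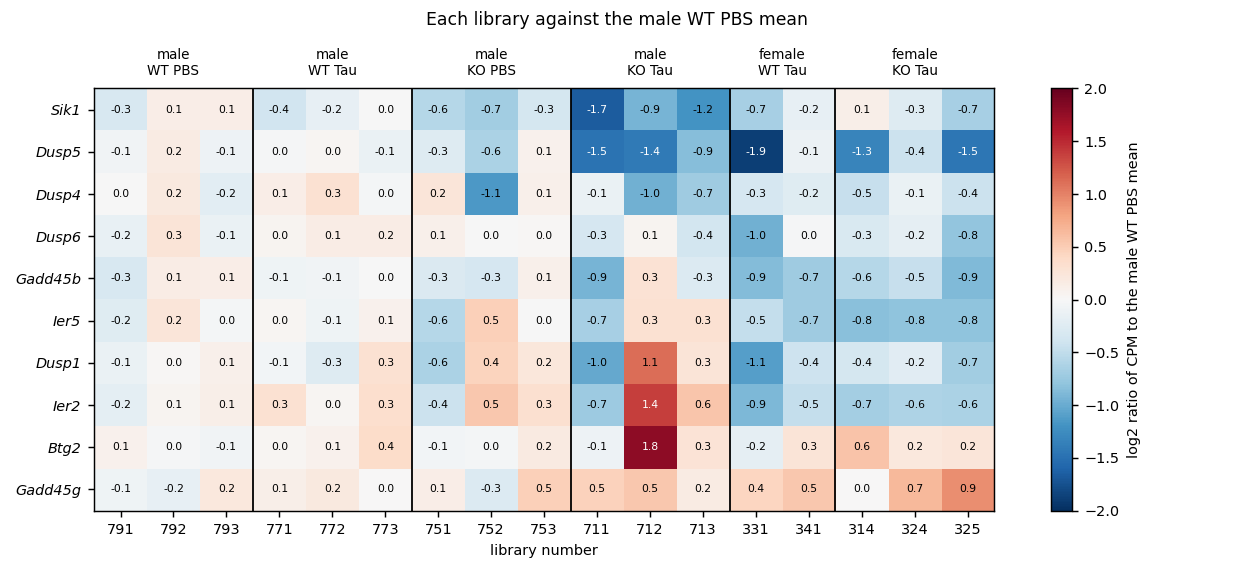
Log2 ratio of each library's CPM to the male WT PBS mean, for the 10 genes (rows) in the 17 libraries (columns), with red for higher and blue for lower. In male KO Tau the Sik1 and Dusp5 rows are low in all 3 libraries, and the Dusp1, Ier2 and Btg2 rows are low or near 0 in 711 and high in 712.

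When library 711 was left out of a DESeq2 fit on the groups compared, 5 of the 10 genes were called against WT PBS, beside 7.13% of all genes. Dusp1 (log2 fold change 0.75) and Ier2 (1.03) were called higher, and Dusp4 (-0.82), Dusp5 (-1.10) and Sik1 (-1.06) lower. Against WT Tau the genes called were Ier2 (0.81) and Ier5 (0.31), higher, and Dusp4 (-0.95), Dusp5 (-1.05) and Sik1 (-0.87), lower, beside 9.30% of all genes. The KO Tau arm of that fit is 2 libraries, which is also the size of that arm in the study's own bulk comparison, whose left-out library the sources used here do not name. Libraries 712 and 713, which made up that arm here, had dentate granule sums of 61.3 and 116 CPM and neocortical sums of 328 and 286 CPM. In WT PBS these sums ranged from 163 to 261 CPM and from 206 to 222 CPM. In WT Tau they ranged from 217 to 283 CPM and from 137 to 214 CPM. The part of tissue makeup in these calls was not tested. With 711 left out, edgeR on the male libraries called none of the 10 in either comparison. Over the edgeR fits with 1 library left out, 0.00654% to 0.00658% of all genes were called in each comparison.

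In the remaining male comparisons none of the 10 genes passed the test. Tau alone, male WT Tau against male WT PBS, gave log2 fold changes between -0.19 (Sik1) and 0.22 (Ier2), and neither edgeR nor DESeq2 called any of the 10. In edgeR 0 of 10 had an unadjusted p under 0.05, beside 1.86% of all genes, and 0% of all genes were called. Knockout alone, male KO PBS against male WT PBS, gave values between -0.48 (Sik1) and 0.25 (Ier2). Sik1, at 0.72 times the WT PBS level, was the one gene with an unadjusted p under 0.05 in edgeR (edgeR unadjusted p = 0.0284, edgeR adjusted p = 0.999), beside 4.42% of all genes. It was also the one whose KO PBS libraries lay wholly below those of WT PBS, beside 9.39% of all genes. DESeq2 called none of the 10, and edgeR called 0.00662% of all genes.

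In the averages over groups the pair did not pass the test in edgeR. For male KO against WT over both treatments the log2 difference was -0.76 ± 0.14 for Sik1 and -0.67 ± 0.14 for Dusp5 (edgeR adjusted p = 0.397 and 0.733), and 0 of 10 were called beside 0.00662% of all genes. For tau against PBS over both genotypes it was -0.47 ± 0.14 for Sik1 and -0.54 ± 0.14 for Dusp5 (edgeR adjusted p = 0.888 for both), and 0 of 10 were called beside 0%. Both averages contain the KO Tau libraries. The genotype by treatment interaction, which asks whether tau acted differently in the knockout, was -0.96 ± 0.27 for Dusp5 and -0.56 ± 0.27 for Sik1. The edgeR adjusted p was 0.996 for both, with 0% of all genes called, and the unadjusted p was 0.00452 for Dusp5 and 0.0634 for Sik1. Without libraries 711 and 752 the interaction was called for Dusp5 (-1.02 ± 0.23, edgeR adjusted p = 0.0285) and Dusp4 (-1.18 ± 0.20, edgeR adjusted p = 0.0115), where 6.86% of all genes were called. Under the same omission 4 of the 10 were called between KO Tau and KO PBS, Dusp4, Dusp5 and Sik1 as lower and Ier2 as higher, beside 10.4% of all genes. The KO Tau libraries left, 712 and 713, had dentate granule sums of 61.3 and 116 CPM and neocortical sums of 328 and 286 CPM. The KO PBS libraries left, 751 and 753, had 443 and 155 CPM and 116 and 168 CPM. The part of tissue makeup in these calls was not tested.

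In females under tau none of the 10 genes was called between knockout and wild type, and Dusp5 and Sik1 spread widely within groups. Dusp5 was at 4.63 and 15.6 CPM in the female WT Tau libraries 331 and 341, and at 6.84, 12.6 and 6.22 CPM in the female KO Tau libraries 314, 324 and 325. Sik1 was at 11.5 and 16.3 CPM in WT and at 19.8, 15.2 and 11.6 CPM in KO, so that no female KO library was as low as the male KO Tau libraries. The log2 fold change of KO against WT was 0.21 ± 0.28 for Sik1 and -0.21 ± 0.44 for Dusp5 (edgeR adjusted p = 0.997 for both). With 1 library left out of the edgeR fit, that of Dusp5 ran from -0.84 to 0.97, so its direction was not settled. None of the 10 was called by edgeR or by DESeq2, none had an unadjusted p under 0.05 in edgeR, and 0.00649% of all genes were called by edgeR. The difference between the sexes in the genotype effect was 1.24 ± 0.38 for Sik1 (female minus male, unadjusted p = 0.00702, edgeR adjusted p = 0.978) and 0.94 ± 0.60 for Dusp5 (edgeR adjusted p = 0.978), with 0% of all genes called.

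Ier2, Ier5 and Gadd45b were lower in female than in male mice under tau. Ier2 ranged from 5.96 to 8.01 CPM in the 5 female libraries and from 11.5 to 28.9 CPM in the male Tau libraries other than 711, which was at 6.75 CPM. Ier5 ranged from 51.6 to 65.6 CPM in females and from 86.1 to 114 CPM in the male Tau libraries other than 711, which was at 57.8 CPM. Gadd45b ranged from 9.89 to 13.3 CPM in females and from 15.1 to 22.4 CPM in the male Tau libraries other than 711, which was at 9.59 CPM. For all 3 genes the sexes overlapped under tau through 711 alone. Outside the Tau groups, male KO PBS library 751 (61.8 CPM) also lay within the female range of Ier5. The log2 fold change of female against male, averaged over genotypes, was -1.15 ± 0.29 for Ier2, -0.80 ± 0.16 for Ier5 and -0.63 ± 0.19 for Gadd45b (edgeR adjusted p = 0.0197, 0.00922 and 0.0346). With 1 library left out of the edgeR fit, Ier5 kept its call in all 11 fits, Ier2 in all but those without 331 or 773 (edgeR adjusted p = 0.0962 and 0.0508), and Gadd45b in 2 of 11, those without 324 or 711 (up to 0.133 in the others). These 3 of 10 stand beside 23.8% of all 15419 genes tested, so the share called is close to the background. DESeq2 called Dusp1 as well (-0.80, adjusted p = 0.0335), beside 26.5% of all genes. Of the 10 genes 8 had lower and 2 higher levels in females, with Sik1 at 0.33 ± 0.19 and Gadd45g at 0.21 ± 0.14 (edgeR adjusted p = 0.202 and 0.271).

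Several marker sums differed between the female and male libraries, and sex and number series cannot be told apart. The summed neuronal markers lay between 3185 and 4046 CPM in females and between 4489 and 5305 CPM in the male Tau libraries other than 711. Library 711, at 3546 CPM, lay within the female range in these markers. In CA1 markers it did not, with 883 CPM against 320 to 702 CPM in females. The inhibitory neuron sum was 482 to 685 CPM in females and 609 CPM in 711, against 879 to 1016 CPM in the other male Tau libraries. Endothelial markers summed to 216 to 287 CPM in females against 101 to 225 CPM in all 12 males, microglial markers to 403 to 450 CPM against 275 to 447 CPM, and oligodendrocyte markers to 4327 to 11133 CPM against 2640 to 6927 CPM. Their part in the lower levels was not tested.

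**Figure D5:**
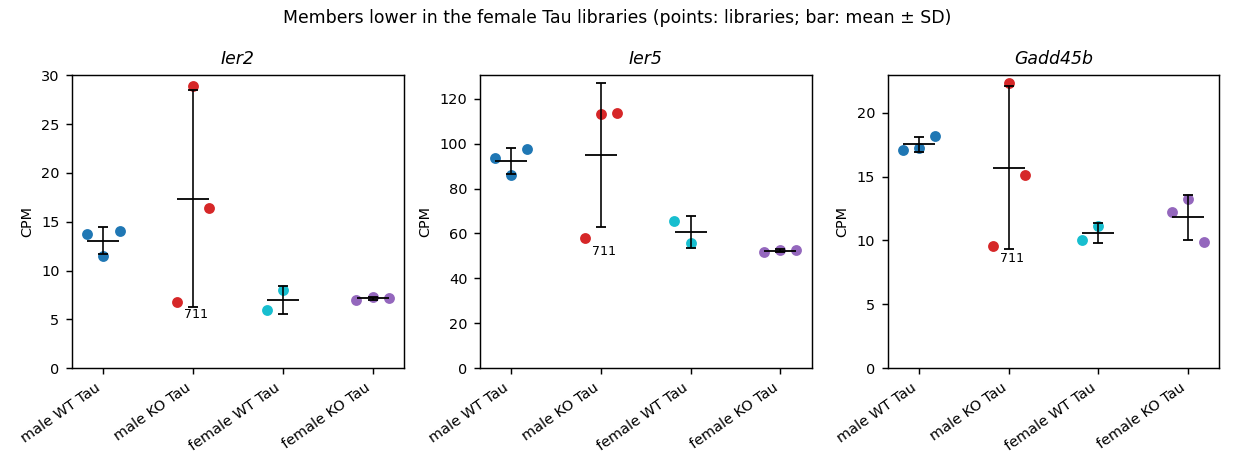
CPM (y axis) of Ier2, Ier5 and Gadd45b in the 4 Tau groups (x axis; points are libraries, bars the mean ± SD), with library 711 marked. The 5 female libraries lie below every male Tau library but 711, at most 8.01, 65.6 and 13.3 CPM.

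Over all 6 groups at once, edgeR called Sik1 (adjusted p = 0.0257) and Ier5 (adjusted p = 0.0417), 2 of 10 beside 19.0% of the 15594 genes tested. For Sik1 the order of group means was male WT PBS (18.2 ± 3.08 CPM, SD, n = 3), male WT Tau (16.2 ± 2.10, n = 3), female KO Tau (15.5 ± 4.13, n = 3), female WT Tau (13.9 ± 3.41, n = 2), male KO PBS (12.6 ± 1.59, n = 3) and male KO Tau (7.76 ± 1.91, n = 3). Neighbours in this order overlapped except the last pair. For Ier5 the 4 male groups lay between 91.6 and 94.9 CPM and did not differ beyond their spread, and female WT Tau (60.7 ± 6.98, n = 2) and female KO Tau (52.3 ± 0.61, n = 3) came last. With 1 library left out, Sik1 kept its call in 13 of 17 fits and lost it without 792, 793, 711 or 713 (adjusted p from 0.0556 to 0.0719), and Ier5 kept it in 3 of 17, those without 751, 752 or 711, with adjusted p up to 0.111 in the others.

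No gene of the wider pathway passed the test in edgeR between these males. Between the KO Tau and WT PBS males, edgeR called 0 of 6 other MAP kinase phosphatases, 0 of 8 Sprouty, Spred and Errfi1 feedback genes, 0 of 8 family relatives of the 10 genes, 0 of 18 kinases and GTPases of the MAP kinase cascades, 0 of 12 upstream factors such as Creb1, Srf and Mef2c, and 0 of 13 early-response transcription factors. The median log2 fold changes of these lists were 0.12, -0.24, -0.05, -0.05, -0.01 and -0.28, beside -0.0032 over all genes tested. At an unadjusted p under 0.05 there were 0, 3, 1, 1, 0 and 3 genes in the same order, beside 6.33% of all genes (0.00662% were called). Among them Spry4, an ERK feedback inhibitor, had a log2 fold change of -0.64 ± 0.12 (edgeR adjusted p = 0.420), Nr4a1, an orphan nuclear receptor, -0.74 ± 0.20 (edgeR adjusted p = 0.783), and Npas4, the activity-dependent factor, 1.78 ± 0.42 (edgeR adjusted p = 0.783).

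A list of 4 glucocorticoid-responsive genes (Fkbp5, Tsc22d3, Sgk1 and Per1) summed to 213, 225 and 247 CPM in male KO Tau libraries 711, 712 and 713, and to 276 to 337 CPM in the other males, so that these groups did not overlap. In edgeR 0 of 4 were called, and Per1, a clock gene also induced through CREB, had a log2 fold change of -0.88 ± 0.14 (edgeR adjusted p = 0.162). In females this sum was higher, 359 to 526 CPM, and edgeR called 3 of 4 as higher in females than males under tau, among them Tsc22d3 (1.17 ± 0.12, edgeR adjusted p = 0.000724). Per1 went the other way (-0.43 ± 0.15, edgeR adjusted p = 0.0549). In the same comparison edgeR called 7 of the 13 early-response transcription factors, all lower in females, among them Egr1 (-1.61 ± 0.29, edgeR adjusted p = 0.00720), and 6 of the 18 cascade genes, all lower. These counts of 3 of 4, 7 of 13 and 6 of 18 stand beside the 23.8% of all genes called in that comparison, and the last is near that share.

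The genes whose pattern was most like the mean standardised level of the 10 over 17 libraries were Junb (Pearson r = 0.93), Mfsd6 (r = 0.91), Egr2 (r = 0.91), L1cam (r = 0.91) and Il34 (r = 0.90), among 15584 genes compared. Over the 12 males alone these values were 0.88, 0.86, 0.85, 0.76 and 0.84. Within the 10 genes the closest pairs were Dusp1 with Ier2 (r = 0.94 over 17 libraries, 0.96 over the 12 males) and, over the males, Dusp5 with Sik1 (r = 0.88, and 0.62 over 17). Libraries share sex, tissue makeup and depth across these genes, and the values are descriptions.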

How the data were processed

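Poly(A) RNA of dorsal hippocampus was sequenced, and the deposited table holds raw read counts per gene symbol, 1 column per library. Per the study's methods and the submitters' processing notes, the authors aligned reads to mm10 (GRCm38) with STAR 2.5.2, used SAMtools 1.1, and made the counts with HTSeq 0.9.1 over exons in its reverse-strand setting. The annotation release was not given in the sources used here. Libraries were grouped by sex, genotype and injection as labelled. The labels number the libraries without saying which animals or litters they came from, so p-values measure the spread between these samples, which may be in part technical. No 2 columns were identical (0 of 136 pairs).

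Fits were made in R 4.3.3 with edgeR 4.0.16, using TMM factors, filterByExpr (minimum count 10, minimum total 15) and the quasi-likelihood F-test, with Benjamini-Hochberg adjustment over all genes tested and a false discovery rate of 0.05. Male contrasts came from the 12 males (15098 genes), sex contrasts from the 11 Tau libraries (15419 genes), and the 6-group test from all 17 (15594 genes). SE is the absolute log2 fold change divided by the square root of F. CPM use the library total, and CPM per kb divide by the exon length of the annotation. Alternatives were DESeq2 1.42.0, which was also the study's own tool, limma 3.58.1 with voom and sample weights, RLE factors, no filter, other sets of libraries and each library left out. The edgeR step was tested on simulated data. The 10 genes are named throughout, other genes beside their list's counts, and 5 genes by likeness, the highest Pearson r with the mean standardised log2 CPM (prior count 2). The 10 genes, the lists (1 of the 9 family relatives failed the filter) and the markers were chosen with earlier results of these data known. Figures used matplotlib 3.10.9.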

Additional observations from a re-analysis of the deposited data

How the results depend on the processing

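The number of the 10 genes called depended on the test and on single libraries, as did the share of all genes called, given here in parentheses, and the cause was not tested. For male KO Tau against WT PBS, where edgeR called none, DESeq2 called 2 on the 12 males (0.0750%) and 2 on the groups compared alone (0.179%), limma voom called 1 (0.0729%), and leaving out libraries 711 and 752 together (chosen after seeing the data) gave 3 in edgeR (1.27%) and 4 in DESeq2 (4.68%). With 1 library left out, in either tool, the range was 0 to 5 (up to 7.13%). For KO Tau against WT Tau the counts were 2 (0.0200%) and 2 (0.188%) in DESeq2, 3 (4.61%) and 5 (8.44%) without 711 and 752 in edgeR and DESeq2, and 0 to 5 with 1 library left out (up to 9.30%). For KO Tau against KO PBS they were 1 in DESeq2 (0.302%), 4 (10.4%) and 6 (12.0%) without 711 and 752, and 0 to 1 with 1 library left out (up to 0.114%). Without 711 and 752 the interaction gave 2 in edgeR (6.86%) and 2 in DESeq2 (9.68%), and tau against PBS averaged over genotypes gave 1 in edgeR (1.08%) and 4 in DESeq2 (4.66%). KO against WT averaged over treatments gave 2 in DESeq2 with all males (0.0652%) and 2 without that pair (0.525%). Over the 6 groups DESeq2's likelihood ratio test called 5 (27.3%) and voom 6 (45.6%), with 0 to 5 when 1 library was left out (10.4% to 30.2%). Female against male gave 1 to 4 with 1 library left out (3.99% to 40.7%).

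Over all 110 log2 fold changes of the 10 genes in 11 comparisons, 45 changed sign under at least 1 alternative, the largest of them that of Btg2 in KO Tau against WT Tau (0.75, and -0.046 without 712). Of the 34 given with the comparisons above, 4 changed sign, in 17 of 652 values, while 568 values kept direction and side of the threshold, 56 passed it where the main value had not and 11 no longer passed. Dusp5 in female KO against WT was 0.086 under voom and ran from -0.84 to 0.99 with 1 library left out, and Sik1 there ran from -0.042 to 0.54. Against male WT PBS in KO Tau, Dusp1 ran from -0.22 to 0.75 and Ier5 from -0.10 to 0.31. Of 60 group mean levels 5 moved by over 1 SD. No paired analysis was possible because the groups share no replicate numbers. Depth did not keep any of the 10 below the filter, and the number of libraries per group, 2 or 3, limits precision.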
